A study of Homo sapiens with 6 samples.

Results

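The 33 genes described here are the transcription factors of the NF-kB family, the proteins that hold them back or release them, and a set of their cytokine and surface targets. They were taken by gene name from the authors' deposited table, which lists coding sequences under 20660 gene names, and all 33 were found there. The rule takes them by name and uses no measured value, though the set was drawn up with earlier results of these data known. The cells were FaDu, a human hypopharyngeal squamous carcinoma line, exposed either to the compound BB608, known here by its code name alone, or to its vehicle DMSO. The sources used here give neither dose nor time, and no other agent or genetic change is named for either group. RNA of 3 libraries per group, biological replicates per the series' design text, was sequenced after removal of ribosomal RNA. The table holds 1 FPKM value per coding sequence and group (fragments scaled by transcript length and library size), pooled by the authors, so no value per library can be given and the depth is unknown.

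NF-kB dimers of Rel proteins sit in the cytoplasm bound to I-kappa-B inhibitors. Signals from cytokine or pattern receptors activate the I-kappa-B kinases, the inhibitor is degraded, and the dimers enter the nucleus and bind kB sites. Among the genes then transcribed are the pathway's own inhibitors, which form negative feedback loops, and cytokines that can act back on the same epithelial cells. In keratinocytes and squamous carcinomas the pathway is known for driving IL-1, IL-6, IL-8 and GM-CSF production.

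The 33 genes had 165 coding sequences in the table, of which the authors tested 102 in 32 genes. CSF3 had none that was tested. The FPKM values of a gene's coding sequences were added up to a gene sum. Statements on gene sums use the genes, called kept, that had a tested coding sequence and whose larger gene sum was 1 FPKM or more. This left 29 of the 33, without CSF3 and without TNF, RELB and TRAF1, which lay below that level. A coding sequence is said to have fallen or risen where Cuffdiff's q, the authors' p adjusted over all tested coding sequences, was under 0.05. The SE given with a log2 fold is the one implied by the authors' p, called the implied SE. No error could be derived for a gene sum. Of the 33 genes 8 share a locus with another gene name, which can make the division of reads between them uncertain.

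The 6 squamous epithelial markers summed to 2541 FPKM with DMSO and 2692 with BB608, and each was above 1 FPKM. Of 6 leukocyte markers, CD68 and CD14 alone passed 1 FPKM, and the list summed to 25.3 FPKM with DMSO and 22.6 with BB608. The T cell marker CD3E was listed at 0 in both groups. The 5 fibroblast markers summed to 0.98 FPKM with DMSO and 0.865 with BB608. Of 3 endothelial markers found, CDH5 had 3.82 FPKM with DMSO and 4.09 with BB608, and VWF and KDR were under 1 FPKM.

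With BB608, the cytokine genes CSF2, IL6, TNF and LIF and the surface gene CD83 stood lower than with DMSO. TNF lay under 1 FPKM in both groups, and the log2 fold of LIF was not told apart from 0. The more abundant cytokine IL1A had a smaller log2 fold of -0.35. IL1B, also more abundant, had nearly equal sums of 19.9 FPKM with DMSO and 20.2 with BB608. The gene sums of the Rel factors RELA, NFKB1 and REL and of the kinases CHUK and IKBKB differed little, with no error on sums of several coding sequences. The most abundant coding sequence of NFKB1 was higher, with a log2 fold of 0.74 (Cuffdiff's p 0.0198, q 0.997), and its 2 other tested ones were lower. Only CD83 fell past the authors' q. The gene sum of CD83 was 1.69-fold lower in BB608, that of IL6 was 2.04-fold lower and that of CSF2 was 2.58-fold lower. NFKBIA, which encodes the main I-kappa-B inhibitor, had a gene sum 1.60-fold higher in BB608, with no coding sequence near the threshold. In a bulk sample, fewer cells that express a gene and less RNA per cell cannot be told apart.

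By the authors' own test, deposited with the values, 1 of the 32 tested genes had a coding sequence that fell by Cuffdiff's q, against 0.63% of all 11429 genes with a tested coding sequence. None rose, against 0.429% of all genes. At an unadjusted p under 0.05, 12 of the 32 had a coding sequence that was lower in BB608, against 4.38% of all genes, and 1 had a coding sequence that was higher, against 5.4%. These 32 genes had a median of 3 tested coding sequences each, against 2 over all genes, and each tested sequence gives a gene another chance to be counted. Of the 29 kept genes 22 had a gene sum lower in BB608, against 42.4% of 10859 kept genes. The median log2 fold of their gene sums was -0.16, against 0.03 over all kept genes, and their quartiles were -0.49 and -0.05. All 33 gene sums, with no filter, gave 25 lower in BB608 and a median of -0.17. Over all genes with a tested coding sequence 42.7% were lower and the median was 0.03.

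**Figure D1:**
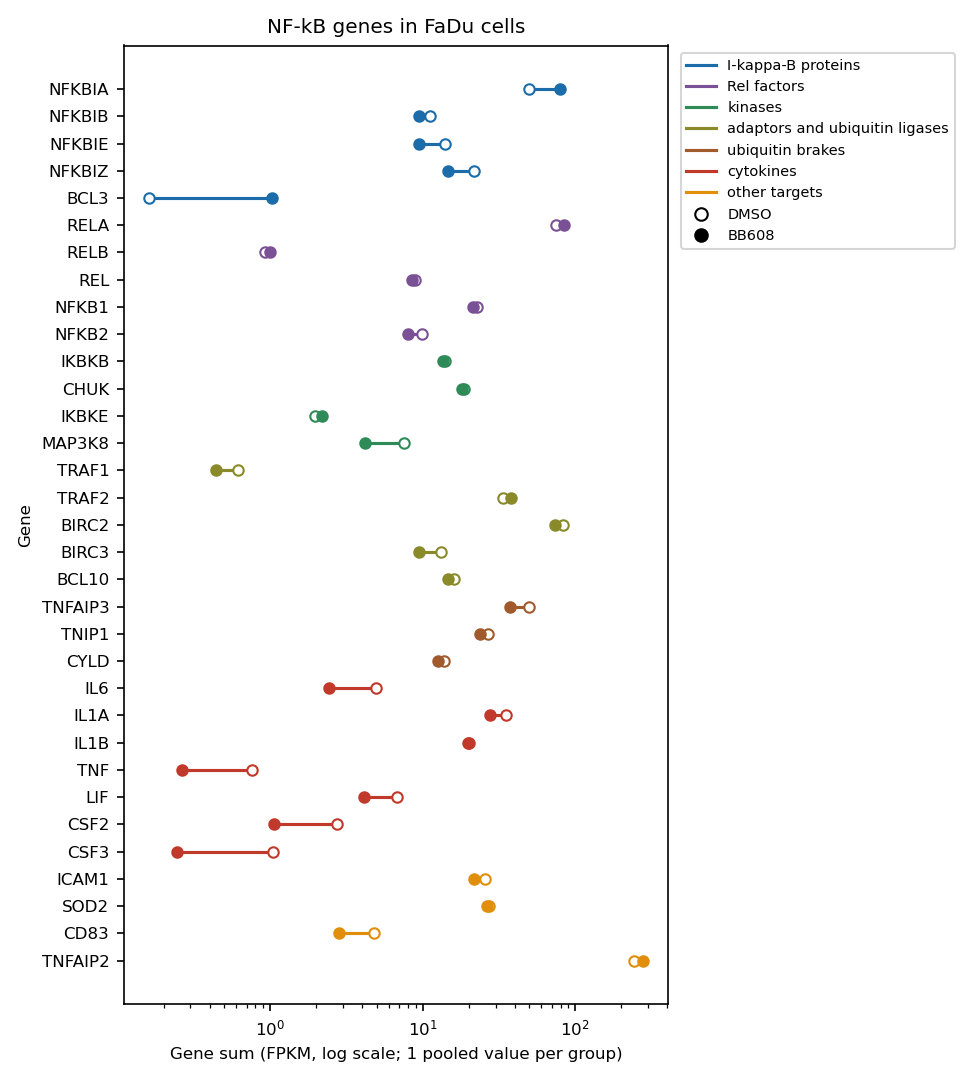
Gene sums of the 33 NF-kB genes in FPKM on a log axis, with DMSO as an open and BB608 as a filled circle, 1 pooled value per group and no error. The widest gaps toward lower BB608 values are those of the cytokines CSF3, TNF, CSF2 and IL6, followed by MAP3K8, CD83 and LIF, the kinases CHUK and IKBKB nearly coincide, and BCL3 and NFKBIA lie higher in BB608.

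RefSeq promoter sequences, on build GRCh38.p14, were found for 28 of the 33 genes and searched in the 250 bases before the gene start for GGGNNNTTCC, a form of the kB site, on both strands. A match lay in 9 of the 28, against 5.61% of all 27305 promoters in the table, and 6.71% of the 8051 of kept genes. These genes are known for kB sites, and a match is a run of letters and not a measured binding site. The 9 genes with a match were NFKBIA, NFKBIZ, REL, NFKB1, MAP3K8, BIRC3, BCL10, TNFAIP3 and IL6. Of these, 8 had a lower gene sum in BB608, REL and NFKB1 among them with log2 folds of -0.07 each. The median log2 fold of the 9 was -0.41. Of the 17 other kept genes with a promoter 11 were lower, with a median of -0.11. Over all kept genes 42.4% were lower. Whether genes with and without a match differ was not tested. The AP-1 site TGANTCA, which reads the same on both strands, was found in 1 of the 28, IL1A, against 6.6% of all promoters and 3.74% of those of kept genes.

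The promoters below are of genes with lower values in BB608, IL6, NFKBIZ, TNFAIP3, BIRC3 and MAP3K8, followed by NFKBIA, with a higher sum, and NFKB1, with coding sequences in both directions. Each is written 5′ to 3′ in the direction of the gene and ends at the base before its start, and capitals mark the kB match. They lie at chr7:22726950-22727199 (plus strand), chr3:101827740-101827989 (plus strand), chr6:137867009-137867258 (plus strand), chr11:102317234-102317483 (plus strand), chr10:30433771-30434020 (plus strand), chr14:35404750-35404999 (minus strand) and chr4:102501109-102501358 (plus strand).
IL6: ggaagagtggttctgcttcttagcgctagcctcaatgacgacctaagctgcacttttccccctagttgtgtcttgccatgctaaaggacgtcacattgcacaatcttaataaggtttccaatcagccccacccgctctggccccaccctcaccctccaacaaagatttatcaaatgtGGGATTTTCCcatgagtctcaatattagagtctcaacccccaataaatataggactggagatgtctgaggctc
NFKBIZ: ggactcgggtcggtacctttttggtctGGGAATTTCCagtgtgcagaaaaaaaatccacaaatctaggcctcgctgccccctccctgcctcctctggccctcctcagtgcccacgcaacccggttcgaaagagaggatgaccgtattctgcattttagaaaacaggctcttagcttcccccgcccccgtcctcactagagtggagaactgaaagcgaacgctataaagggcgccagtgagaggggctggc
TNFAIP3: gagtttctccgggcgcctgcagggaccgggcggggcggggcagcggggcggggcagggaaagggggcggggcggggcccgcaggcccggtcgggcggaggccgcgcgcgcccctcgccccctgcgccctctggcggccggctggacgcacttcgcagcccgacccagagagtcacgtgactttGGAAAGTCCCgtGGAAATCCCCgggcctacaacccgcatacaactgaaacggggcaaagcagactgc
BIRC3: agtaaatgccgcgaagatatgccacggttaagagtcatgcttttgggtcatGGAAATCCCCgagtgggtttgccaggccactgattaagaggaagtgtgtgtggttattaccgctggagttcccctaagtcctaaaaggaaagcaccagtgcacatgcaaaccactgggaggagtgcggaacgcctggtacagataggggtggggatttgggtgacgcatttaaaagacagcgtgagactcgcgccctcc
MAP3K8: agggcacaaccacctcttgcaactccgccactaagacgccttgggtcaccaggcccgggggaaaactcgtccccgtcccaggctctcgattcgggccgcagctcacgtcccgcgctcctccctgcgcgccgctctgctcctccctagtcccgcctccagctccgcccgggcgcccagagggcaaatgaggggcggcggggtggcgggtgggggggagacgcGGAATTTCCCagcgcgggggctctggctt
NFKBIA: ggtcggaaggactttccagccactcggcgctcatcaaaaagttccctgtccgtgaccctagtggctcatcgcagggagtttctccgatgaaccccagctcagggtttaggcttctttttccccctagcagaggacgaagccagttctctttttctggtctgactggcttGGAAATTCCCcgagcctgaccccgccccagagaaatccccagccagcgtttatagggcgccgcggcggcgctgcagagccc
NFKB1: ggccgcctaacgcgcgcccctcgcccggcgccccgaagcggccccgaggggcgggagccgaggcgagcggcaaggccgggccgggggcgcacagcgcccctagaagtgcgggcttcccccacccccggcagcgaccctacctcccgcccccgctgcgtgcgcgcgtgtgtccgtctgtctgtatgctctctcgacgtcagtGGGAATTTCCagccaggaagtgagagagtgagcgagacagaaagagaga
The matched letters were GGGATTTTCC in IL6, GGGAATTTCC in NFKBIZ and NFKB1, and, in the direction of the gene, GGAAATTCCC in NFKBIA and GGAATTTCCC in MAP3K8. TNFAIP3 held a pair of matches, GGAAAGTCCC and GGAAATCCCC, and BIRC3 held GGAAATCCCC. The same 10 letters stood before NFKBIZ, with a lower sum, and NFKB1, with a sum near level, and on the other strand before NFKBIA, with a higher sum, and REL, with a sum near level. The windows of CD83, CSF2 and TNF did not hold the letters searched, which says nothing about sites elsewhere or in another form.

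Among the cytokine genes, CSF2 came nearest to the threshold. CSF2 encodes GM-CSF, a growth factor of granulocytes and macrophages, and its single coding sequence went from 2.74 FPKM with DMSO to 1.06 with BB608. The authors' deposited table gave this log2 fold of -1.37 (SE 0.37) a p-value of 0.0002 and a q-value of 0.0539, just outside the threshold. When the q was recomputed without coding sequences whose mean was under 1 FPKM, the value for CSF2 was 0.0433. A pseudocount of 1 FPKM brings its log2 fold to -0.86. The CSF2 locus spans 131409482 to 131411859 on chromosome 5 of hg19, as deposited. Its fold was lower than that of all but 0.617% of kept genes.

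TNF, the cytokine for which the TNF receptors are named, was scarce, at 0.761 FPKM with DMSO and 0.263 with BB608. Its single coding sequence had a log2 fold of -1.53 (SE 0.46), for which the authors' deposited table has p 0.0009 and q 0.187. At such levels a pseudocount of 1 FPKM brings the fold to -0.48. The TNF locus spans 31543343 to 31546113 on chromosome 6 of hg19.

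IL6, the ligand of the gp130 receptor complex, had a gene sum of 4.93 FPKM with DMSO and 2.42 with BB608. Of its 4 tested coding sequences 3 were lower in BB608. The most abundant, P70594 in the table's numbering, went from 2.03 to 0.913 FPKM, which is a log2 fold of -1.15 (SE 0.47; p 0.0152, q 0.997). A second, P70593, went from 1.11 to 0.367 FPKM (p 0.0503). Another, P70590, went from 1.57 to 0.00226 FPKM (p 0.134), and P70595 went from near 0 to 0.714 FPKM (p 0.207). These extremes lay in opposite directions, and neither had a p under 0.05. The RefSeq promoter window of IL6 holds the kB letters GGGATTTTCC given above.

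LIF, another ligand of the gp130 family, had a gene sum of 6.77 FPKM with DMSO and 4.11 with BB608. Its main coding sequence had a log2 fold of -0.87 (SE 0.57; p 0.13), which was not told apart from 0. CSF3, which encodes G-CSF, summed to 1.05 FPKM with DMSO and 0.245 with BB608 over 7 coding sequences, none of them tested. No error can be given for CSF3, and its fold has no test.

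IL1A, an alarmin stored in keratinocytes, was the most abundant cytokine of the set at 35.2 FPKM with DMSO and 27.6 with BB608. Its single coding sequence had a log2 fold of -0.35 (SE 0.12; p 0.0023, q 0.379). IL1B, the secreted form that needs caspase-1 for maturation, had gene sums of 19.9 FPKM with DMSO and 20.2 with BB608. Within IL1B, P49570 went from 8.49 to 5.84 FPKM (p 0.0721) while P49571 went from 0.0221 to 1.36 FPKM (p 0.272). The sign of the IL1B gene sum, at 0.02, turns to -0.02 with scaling by the median log2 ratio and to -0.03 with quantile normalization. Whether the folds of IL1A and IL1B differ was not tested.

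CD83, a surface protein of the immunoglobulin family known as a marker of mature dendritic cells and an NF-kB target, was the member that fell. Its single coding sequence went from 4.77 FPKM with DMSO to 2.82 with BB608, a log2 fold of -0.76 (SE 0.13). Cuffdiff's p of 5e-05 is the smallest value in the authors' deposited table, and the q was 0.0154. Coding sequences of IL8, PTGS2 and GADD45B had the same p and q. The CD83 locus spans 14117871 to 14137149 on chromosome 6 of hg19. At so small a p the SE came from the authors' test statistic. The 95% interval of this log2 fold, from that SE, runs from -1.02 to -0.50. PTPRC, the pan-leukocyte marker, had 0.0065 FPKM with DMSO and 0.0013 with BB608.

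The other targets stayed closer to their DMSO levels. ICAM1, the adhesion ligand of leukocyte integrins, had gene sums of 25.7 FPKM with DMSO and 21.7 with BB608, and all 3 of its tested coding sequences were lower, with p values of 0.136, 0.429 and 0.606. SOD2, the mitochondrial superoxide dismutase, had 27.3 FPKM with DMSO and 26.3 with BB608. Its most abundant coding sequence by the mean of the groups had a log2 fold of 0.50 with an implied SE of 1.39, so these data place few bounds on it. The SOD2 coding sequences share their locus in the table with ACAT2, TCP1 and WTAP. TNFAIP2, a cytokine-induced gene of epithelial and endothelial cells, was the most abundant of the 33, at 242 FPKM with DMSO and 279 with BB608. Of its 7 tested coding sequences 6 were higher in BB608, none with a p under 0.05.

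**Figure D2:**
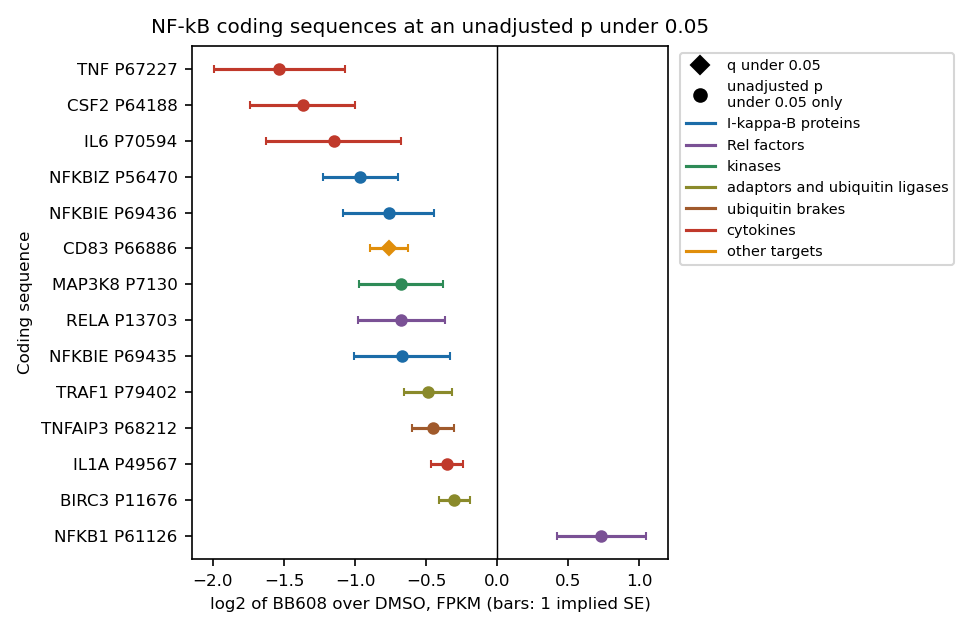
Log2 ratio of BB608 over DMSO FPKM for the 14 coding sequences of these genes with an unadjusted p under 0.05, with bars of 1 implied SE. CD83, drawn as a diamond, is the one with a q under 0.05; 13 of the 14 lie below 0 and NFKB1 P61126 lies above.

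None of the 5 I-kappa-B genes had a coding sequence past the authors' q, and their gene sums lay on both sides of 0. NFKBIA had gene sums of 49.6 FPKM with DMSO and 79.7 with BB608, a log2 fold of 0.68 that is higher than that of 96.1% of kept genes. All 4 of its tested coding sequences were higher in BB608. Most of the gain lay in P23477, which went from 10.1 to 30.3 FPKM with an implied SE of 2.23 on a log2 fold of 1.58 (p 0.478). The most abundant coding sequence, P23478, went from 34.2 to 41.9 FPKM, which is a log2 fold of 0.29 (SE 0.24; p 0.228). The share of NFKBIA FPKM in P23478 was 69.0% in DMSO and 52.6% in BB608. None of these had an unadjusted p under 0.05. The promoter window of NFKBIA holds a kB match, as do those of NFKBIZ and TNFAIP3, whose sums were lower.

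NFKBIZ, an atypical nuclear I-kappa-B that acts as a coactivator of IL6 and other secondary response genes, had a lower gene sum in BB608. The sum was 21.8 FPKM with DMSO and 14.6 with BB608. P56470 went from 13.2 to 6.79 FPKM, which is a log2 fold of -0.96 (SE 0.27; p 0.0003, q 0.0772), while P56466 had 8.21 and 7.74 FPKM (p 0.881). The NFKBIZ locus spans 101498045 to 101579879 on chromosome 3 of hg19. NXPE3 shares it in the table.

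NFKBIE, the epsilon inhibitor, had a gene sum of 14.0 FPKM with DMSO and 9.39 with BB608. Its main coding sequences P69435 and P69436 had log2 folds of -0.67 (SE 0.34; p 0.0471) and -0.76 (SE 0.32; p 0.0173), and q 0.997 for both in the authors' deposited table. NFKBIB, the beta inhibitor, had 11.1 FPKM with DMSO and 9.38 with BB608, and its most abundant coding sequence had 6.62 FPKM in both groups. The lower sum of NFKBIB came largely from P40904, listed at 1.21 FPKM in DMSO and near 0 in BB608 (p 0.243). BCL3, a nuclear I-kappa-B that partners p50 and p52 homodimers, had 0.16 FPKM with DMSO and 1.02 with BB608. The log2 fold of BCL3, 2.68, had an implied SE of 2.11 (p 0.204), and the gene passed the level of 1 FPKM only through its BB608 value.

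Of the Rel factors, RELA, NFKB1 and REL had gene sums with log2 folds of 0.18, -0.07 and -0.07, and NFKB2 of -0.29. With no error on the sums, NFKB2 cannot be told apart from the others. RELA, the p65 subunit, had 74.5 FPKM with DMSO and 84.5 with BB608, and was the most abundant of the 5 Rel genes in both groups. Its main coding sequence P13705 had a log2 fold of 0.10 (SE 0.17; p 0.535). A minor one, P13703, went from 6.70 to 4.205 FPKM, which is a log2 fold of -0.67 (SE 0.31; p 0.0283, q 0.997). REL, the c-Rel subunit, had 8.92 FPKM with DMSO and 8.47 with BB608, and its main coding sequence had a log2 fold of -0.08 (SE 0.12). The 95% interval for REL runs from -0.32 to 0.16, so a change of 1 log2 in that coding sequence lies outside it.

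NFKB1, whose p105 product is both an I-kappa-B and the precursor of p50, had gene sums of 22.6 FPKM with DMSO and 21.5 with BB608. Its coding sequences differed in direction. P61126 went from 7.07 to 11.8 FPKM, which is a log2 fold of 0.74 (SE 0.32; p 0.0198, q 0.997), and is the single coding sequence of the 33 genes that was higher at an unadjusted p under 0.05. P61131 went from 8.58 to 5.52 FPKM (p 0.436) and P61132 from 6.26 to 3.42 FPKM (p 0.311). The share of NFKB1 FPKM in P61126 was 31.3% in DMSO and 54.7% in BB608. The table does not say which protein form each coding sequence encodes.

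NFKB2, the precursor of p52, had 9.86 FPKM with DMSO and 8.04 with BB608, and its most abundant coding sequence had a log2 fold of 0.13 (SE 0.34). RELB, the partner of p52 in the noncanonical pathway, was scarce, at 0.923 FPKM with DMSO and 0.991 with BB608. Ordered by gene sum in DMSO, the Rel genes ran RELA, NFKB1, NFKB2, REL and RELB, and with BB608 REL stood above NFKB2. With no error on the sums, NFKB2 and REL cannot be ordered.

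**Figure D3:**
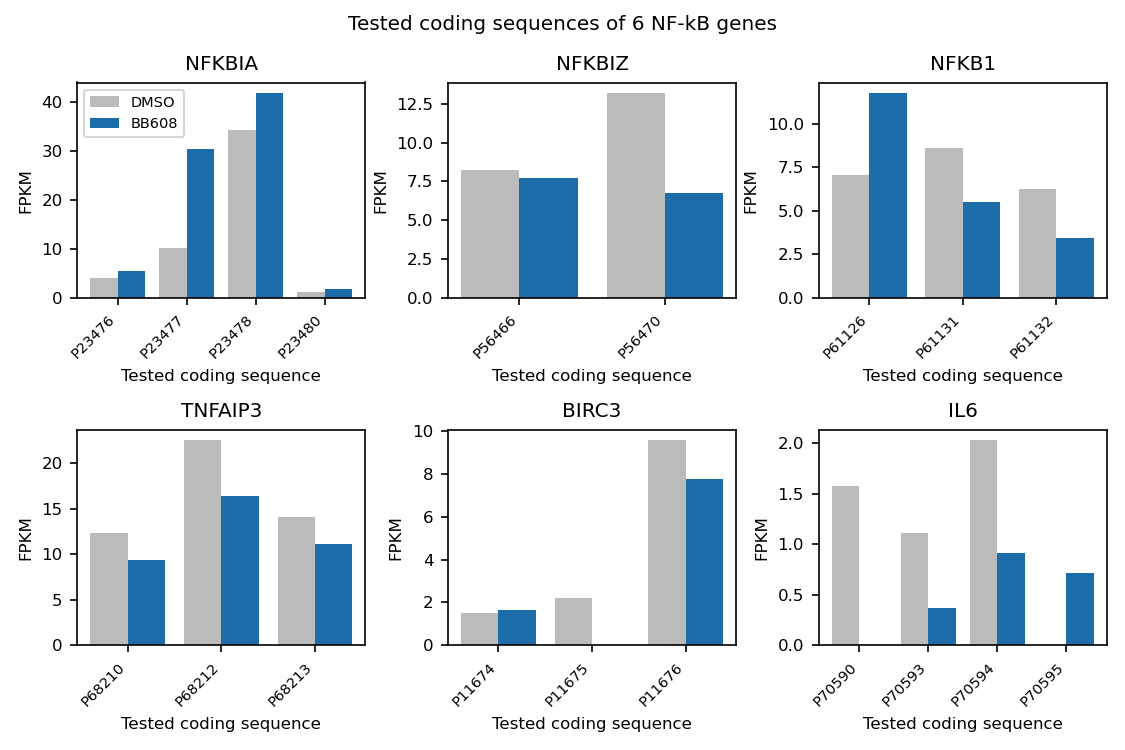
FPKM of each tested coding sequence of 6 NF-kB genes in DMSO (grey) and BB608 (blue), 1 pooled value per group. All bars of NFKBIA are higher in BB608 and all of TNFAIP3 lower, while NFKB1, BIRC3 and IL6 hold coding sequences in both directions.

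Among the kinases, those that release the inhibitors had nearly equal sums in both groups, and MAP3K8 was lower. CHUK, the alpha catalytic subunit of the I-kappa-B kinase, had 18.6 FPKM with DMSO and 17.97 with BB608, a log2 fold of -0.05 (SE 0.18). In the table CHUK shares its locus with CWF19L1 and ERLIN1. IKBKB, the beta subunit, had gene sums of 14.0 and 13.5 FPKM, and IKBKE, a noncanonical relative, had 1.97 and 2.195 FPKM, in DMSO and BB608. The most abundant coding sequence of IKBKB had a log2 fold of 0.05 with a 95% interval from -1.05 to 1.16, so these data place few bounds on it. The main coding sequence of IKBKE had a log2 fold near 0 with a 95% interval from -0.36 to 0.35. MAP3K8, the kinase that links NFKB1 p105 degradation to the ERK pathway, had gene sums of 7.503 FPKM with DMSO and 4.16 with BB608. All 4 of its tested coding sequences were lower, P7130 among them with a log2 fold of -0.68 (SE 0.30; p 0.0217, q 0.997).

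Among the ubiquitin ligases and adaptors that carry receptor signals, BIRC3 had the lowest log2 fold of the kept genes, at -0.49. BIRC3, the inducible cellular inhibitor of apoptosis, had gene sums of 13.3 FPKM with DMSO and 9.41 with BB608. Its main coding sequence P11676 went from 9.57 to 7.77 FPKM, which is a log2 fold of -0.30 (SE 0.11; p 0.00495, q 0.609). The larger part of the difference in the BIRC3 sum came from P11675, listed at 2.19 FPKM in DMSO and near 0 in BB608 (p 0.218). BIRC2, its constitutive relative, had 82.7 FPKM with DMSO and 73.4 with BB608, and of its 8 tested coding sequences 5 were lower. Within BIRC2, P11679 had a log2 fold of 1.19 (SE 0.94) and P11684 of -0.58 (SE 0.50).

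TRAF1, an inducible adaptor, was scarce, at 0.615 FPKM with DMSO and 0.439 with BB608, with its tested coding sequence showing a log2 fold of -0.49 (SE 0.17; p 0.00415, q 0.546). TRAF2, the adaptor that recruits BIRC2 and BIRC3 to TNF receptors, had 33.5 FPKM with DMSO and 37.8 with BB608, and its main coding sequence had a log2 fold of 0.10 (SE 0.13). BCL10, which joins CARD proteins to the paracaspase MALT1, had 16.1 FPKM with DMSO and 14.7 with BB608, a log2 fold of -0.13 (SE 0.15).

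The genes grouped here as ubiquitin brakes, TNFAIP3, TNIP1 and CYLD, were all lower as sums. TNFAIP3, which encodes the ubiquitin-editing enzyme A20, had gene sums of 49.4 FPKM with DMSO and 37.1 with BB608, and its 3 tested coding sequences were all lower. The most abundant, P68212, had a log2 fold of -0.45 (SE 0.15; p 0.00215, q 0.367). The TNFAIP3 locus spans 138178422 to 138204938 on chromosome 6 of hg19. TNIP1, an A20-binding protein, had 26.6 FPKM with DMSO and 23.8 with BB608, and CYLD, a deubiquitinase, had 13.7 and 12.7 FPKM. No coding sequence of TNIP1 or CYLD had a p under 0.05, and the main one of CYLD had a log2 fold of 0.02 (SE 0.17).

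Other genes of the pathway were taken from a pair of lists drawn by known role. Of 36 tested receptors, adaptors and enzymes none fell or rose by Cuffdiff's q, and at an unadjusted p under 0.05, 7 had a lower and 2 a higher coding sequence, against the 4.38% and 5.4% of all genes. The 34 kept genes of this list had a median log2 fold of 0.03, with 16 lower and 18 higher in BB608, against 42.4% lower over all kept genes. The lowest gene sums were of the Toll-like receptor adaptor MYD88 at -0.66, its relative TICAM1 at -0.44, the NF-kB regulator COMMD1 at -0.39 and the kinase IRAK2 at -0.36. The highest were of the receptor IL18R1 at 0.70, the scaffold CARD10 at 0.51, IKBKG, the regulatory subunit of the I-kappa-B kinase, at 0.48 and the A20-binding TNIP2 at 0.46. IL18R1, with 0.917 FPKM with DMSO and 1.49 with BB608, reached 1 FPKM only through its BB608 value.

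Of 22 tested genes in the list of other known targets, 4 fell by Cuffdiff's q and none rose, against 0.63% and 0.429% of all genes. At an unadjusted p under 0.05, 11 had a lower coding sequence, against 4.38% of all genes. The 4 were IL8, PTGS2, GADD45B and IER3, and the IL8 and PTGS2 changes were known when the list was drawn. GADD45B, a stress-induced regulator of MAP kinase signalling, had a gene sum of 21.3 FPKM with DMSO and 12.3 with BB608, and its most abundant coding sequence had a log2 fold of -1.39 (SE 0.17). IER3, an early-response survival gene, had 58.0 and 42.1 FPKM, with -0.45 (SE 0.12) for its most abundant coding sequence. The 20 kept targets had a median log2 fold of -0.38, and 17 were lower, against 42.4% of all kept genes. The lowest gene sums were of the chemokine CCL20 at -2.28, PTGS2 at -1.96, IL32 at -1.56 and IL8 at -1.06. Of the kept targets, IL32, CXCL3 and IL23A reached 1 FPKM only through their DMSO values, so their lower sums in BB608 follow from the filter, and the count of 17 includes them. IL32 had 1.19 FPKM with DMSO and 0.402 with BB608. The 3 that were higher were CXCL16 at 0.72, BCL2L1 at 0.20 and TAP1 at 0.06. CXCL1, by contrast with IL8, had 31.6 FPKM with DMSO and 30.8 with BB608, a log2 fold of -0.04 (SE 0.11).

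Among the 33 genes themselves, the 9 kept cytokines and other targets had a median log2 fold of -0.35, and the 20 kept factors, inhibitors, kinases, adaptors and brakes had a median of -0.12. The ranges of these sets overlapped, from -1.37 to 0.21 and from -0.85 to 2.68, and the difference between their medians was not tested.

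**Figure D4:**
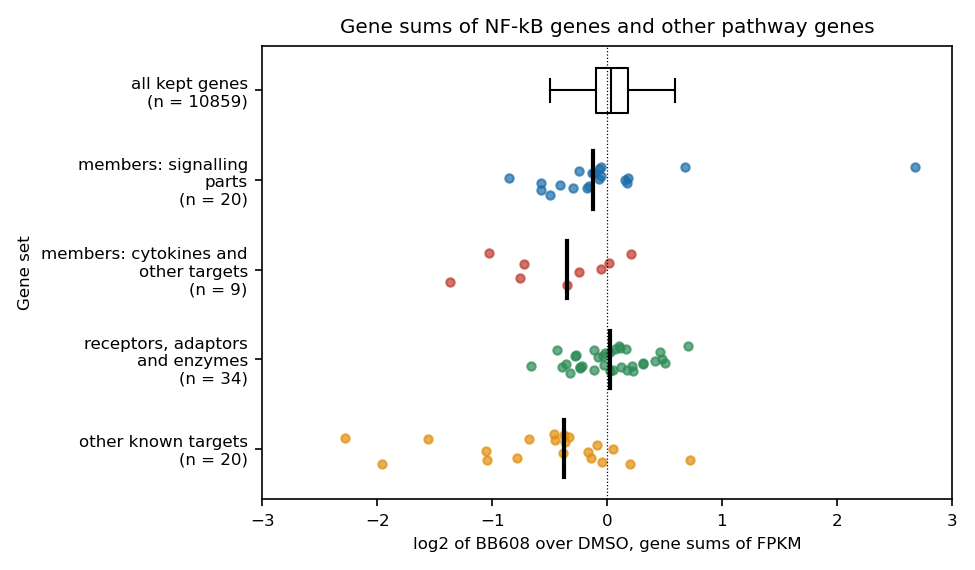
Log2 ratios of BB608 over DMSO gene sums for all 10859 kept genes (box, quartiles and median; whiskers, percentiles 5 and 95) and, as points with a bar at the median, for the NF-kB genes in 2 sets and for the other pathway genes in 2 lists. The medians are 0.03 for all kept genes, -0.12 for the signalling parts, -0.35 for the cytokines and other targets, 0.03 for the receptors, adaptors and enzymes and -0.38 for the other known targets.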

How the data were processed

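Total RNA of FaDu cells was sequenced from 3 DMSO and 3 BB608 libraries prepared with a stranded kit after depletion of ribosomal RNA, per the labels' protocols. TopHat2 2.0.11, Cufflinks 2.2.1 and Cuffdiff were used with build hg19, per the submitters' processing notes. The sources used here name no gene annotation and do not say whether counting used strand. The authors deposited 1 FPKM value per coding sequence and group, with a test statistic, which is a score, and its p-value and q-value. Column names call each group a subset, which is not explained. The design text calls the libraries biological replicates, but nothing says whether they came from separate cultures. The p-values are Cuffdiff's for these libraries. What spread they measure cannot be checked from 1 pooled value per group.

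Log2 ratios were computed from the deposited FPKM values with Python 3.11.15, pandas 2.3.3 and scipy 1.17.1, since the deposited fold column held spreadsheet errors. The deposited q matched a Benjamini-Hochberg adjustment over 34474 tested coding sequences to within 5.23e-07. The implied SE is the log2 fold divided by the normal quantile of the authors' two-sided p. For p under 0.0001 or over 0.5 the statistic times 1.73 took the place of that quantile, 1.73 being their median ratio over 29213 coding sequences. No SE was derived at or under 0.001 FPKM. Kept genes had a tested coding sequence, none of failed status, a single gene name and the level stated. The calculations were checked on data simulated with normal errors of the implied SE itself. Such data cannot show whether that SE or Cuffdiff's p suits the deposited values. The planned limma fit needs values per library, so the authors' test was used. Members and lists were chosen with earlier results of these data known. Values of coding sequences were given for genes with an unadjusted p under 0.05 or opposite folds over 1 implied SE, and, after their values were seen, for NFKBIA and others named. Of the other pathway genes, those past the q and the 4 lowest and 4 highest sums per list were named.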

Additional observations from a re-analysis of the deposited data

How the results depend on the processing

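No paired analysis was possible because each group's libraries were pooled before deposit, and for the same reason limma and leaving out each replicate were not run. The count of 1 NF-kB gene past the authors' q became 2, with CSF2 added, under a recomputed q. That q left out coding sequences whose mean was under 1 FPKM, so fewer are tested. Raising this cut to 5 FPKM gave 1, but the gene was not CD83. Both CD83 and CSF2, under 5 FPKM in each group, were left out by it. The gene was NFKBIZ, whose P56470 had the lowest Cuffdiff's p of those left, 0.0003. Its values were 13.2 FPKM with DMSO and 6.79 with BB608. At an unadjusted p under 0.05, which can only keep or raise the count past the authors' q, the count became 13. A bound of 1 log2 on top of the authors' q can only keep or lower it. With that bound it became 0, since the log2 fold of CD83 was -0.76. The count of 4 other pathway genes became 20 at an unadjusted p under 0.05 and 3 with the bound of 1 log2. The median log2 fold of the kept NF-kB genes ran from -0.20 with quantile normalization to -0.08 with the most abundant tested coding sequence of each gene. The number lower in BB608 ran from 18 of 29, with that same setting, to 25 of 33 with no filter. Over all kept genes the median was -0.009 after quantile normalization. With no filter 42.7% of all genes with a tested coding sequence were lower. Neither was computed over all genes for the most abundant coding sequence. A mean of at least 1 FPKM over both groups, chosen after seeing the data because BCL3 passed only through BB608, gave 22 of 28 lower. Over all genes with such a mean 42.4% were lower. Over 6 settings for each of 32 genes, 10 of 192 folds changed sign and 9 moved by over 1 implied SE. Since a gene sum has no SE, that of the gene's most abundant tested coding sequence was used. Where it is wide, as for BCL3 at 2.11 and SOD2 at 1.39, hardly any shift could count as a move. A pseudocount cannot change a sign, nor can the choice of coding sequences in a gene that has a single one. CD83, the gene past the q, has a single coding sequence, so its sign could change only by scaling or quantile normalization. With a pseudocount of 1 FPKM the log2 fold of CD83 became -0.60, that of CSF2 -0.86 and that of TRAF1 -0.17. NFKB1, NFKB2, IKBKB, IKBKE, CYLD and SOD2 changed sign with the most abundant coding sequence. IKBKE did so with tested coding sequences only, IL1B under both scalings and RELB with quantile normalization. The depth is unknown, so the number of reads behind low values, such as those of TNF, TRAF1 and RELB, cannot be given.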
